A study of Mus musculus with 21 samples.

Results

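The enzymes that make nucleotides and the one-carbon units built into them were compared between B cell precursors carrying an oncogene and the same cells carrying an empty vector. A list of 35 genes was chosen by symbol, from phosphoribosyl pyrophosphate (PRPP) synthesis to the salvage of purine bases, and all 35 were found among the 24421 gene symbols of the count table. All 35 also passed the filter on low counts, which left 12786 genes for testing.

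RNA was sequenced from 6 cultures of mouse B cell precursors, with 2 libraries for each of 3 conditions. All cells came from bone marrow of 53BP1-/- C57BL/6 mice, so the controls also lack this DNA repair factor, and the age of the animals is not given. They were grown with interleukin-7 (IL-7, 10 ng/ml), the cytokine that drives B cell precursors to divide, and transduced on days 2 and 3 of culture with the retroviral vector MIGR1. The vector was empty (EV) or carried BCR-ABL1, the human fusion kinase of Philadelphia chromosome-positive leukemia, or the mouse transcription factor C-MYC, and the labels place harvest on days 7 to 9 after transduction. The libraries are bulk cultures, in which fewer cells of a type and less RNA per cell cannot be told apart. The methods of the study describe the RNA of each condition as coming from duplicate experiments, and no source used here says whether these began from separate animals, so p-values measure the spread between these samples only, which may be technical.

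Cells can build purines and pyrimidines from PRPP, amino acids, carbon dioxide and one-carbon units carried by folate, or recover them from free bases and nucleosides. The purine ring is assembled on PRPP as far as inosine monophosphate (IMP), which branches to AMP and GMP, whereas the pyrimidine ring is closed before it is joined to PRPP. Ribonucleotide reductase and thymidylate synthase then turn part of these pools into DNA precursors. Many genes of these pathways are textbook targets of MYC, and methotrexate, mercaptopurine and other drugs used in lymphoid leukemia act on them.

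Library totals ran from 20687092 to 24095955 counts, and levels are given as CPM, the counts of a gene scaled to the library size and by edgeR's TMM factor. The replicates of every condition differed beyond counting noise (chi-square per degree of freedom 10.1 to 45.2, the highest in EV). Myc, which checks the C-MYC label, had 37920 and 27450 counts in the C-MYC libraries, 7239 and 8381 in BCR-ABL1 and 3869 and 3277 in EV. It was also higher in BCR-ABL1 than in EV, with a log2 fold change of 1.12 (SE 0.19, adjusted p = 0.00681 in edgeR's quasi-likelihood test). Trp53bp1, the gene of 53BP1, had 342 to 723 counts over the 6 libraries, and counts per gene do not check the genotype. The 10 B cell precursor markers summed to 5552 to 9115 CPM over the libraries, and none was absent from any of them. Markers of other cells were higher in EV: the 12 myeloid markers reached a sum of 1256 and 1675 CPM in EV, and C-MYC had 210 and 355 and BCR-ABL1 158 and 170.

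The members took a larger share of the C-MYC libraries than of the others. The EV libraries gave them 0.562% and 0.611% of all counts, the BCR-ABL1 libraries 0.689% and 0.731%, and the C-MYC libraries 0.890% and 0.921%. The 3 conditions did not overlap, and the mean share was 0.586% ± 0.034 for EV, 0.710% ± 0.030 for BCR-ABL1 but 0.906% ± 0.022 for C-MYC (SD, n = 2). With 2 libraries against 2, an exact 2-sided permutation test cannot go below p = 0.333, and no p is given for this share. The group mean rose from EV to BCR-ABL1 to C-MYC in 28 of the 35 genes, and the C-MYC mean was the highest in 29. These orders were not counted over all genes tested, so the 2 counts are a description only.

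In C-MYC against EV, 27 of the 35 genes rose and 0 fell in edgeR's quasi-likelihood test (p adjusted by Benjamini-Hochberg over all genes tested, threshold 0.05), whereas 18.6% of all genes tested rose and 24.5% fell. At an unadjusted p below 0.05, 3 members were lower (Adssl1, Ctps2 and Rrm2b). DESeq2 called 0 lower, whereas edgeR called 3 lower with scaling by total counts and 2 with the replicate number as a block. The median log2 fold change was 0.87 over the members and -0.08 over all genes tested. Against EV, BCR-ABL1 had 17 members that rose and 1, Adssl1, that fell, where 5.08% of all genes rose and 12.0% fell. The median here was 0.39, against 0.00 over all genes. In C-MYC against BCR-ABL1, 23 rose and 1, Dck, fell, where 11.5% of all genes rose and 11.9% fell, with medians of 0.47 and 0.00.

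In C-MYC against EV, leaving out each library in turn left 23 to 27 members higher. Many calls that involve BCR-ABL1 were lost when 1 library was left out, and so were many calls over all genes. In BCR-ABL1 against EV, 1 member was called higher by edgeR without BCR-ABL1 replicate 1, 0 without BCR-ABL1 replicate 2 (13 at an unadjusted p below 0.05), 8 without either C-MYC replicate, 11 without EV replicate 1 and 21 without EV replicate 2. Over all genes, 650 were higher with all libraries, 128 without BCR-ABL1 replicate 1 and 121 without BCR-ABL1 replicate 2. In C-MYC against BCR-ABL1, 2 were higher without BCR-ABL1 replicate 1, 9 without BCR-ABL1 replicate 2, 8 without C-MYC replicate 1 and 7 without C-MYC replicate 2, where all genes gave 167, 488, 601 and 486 against 1468 with all libraries. Ppat and Pfas kept their rise in this comparison in all 6 fits. The median log2 fold change of the members stayed within 0.32 to 0.40 in BCR-ABL1 against EV and 0.40 to 0.52 in C-MYC against BCR-ABL1. Each of these fits assumes that a lone sample varies like the other groups.

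The 3 comparisons share libraries, so the calls of a gene are set side by side and not counted as independent. Joint patterns of calls were not counted over all genes tested, so their counts here are a description only. A rise in all 3 was called for 13 genes, and 9 rose in both C-MYC comparisons but were not called in BCR-ABL1 against EV. Another 2 rose in both oncogene groups against EV with no call between the oncogenes, and 3 were called only in C-MYC against EV. Tyms was called higher in BCR-ABL1 against EV and in no other comparison. Dck rose in BCR-ABL1 and was lower in C-MYC than in BCR-ABL1, and Adssl1 fell in BCR-ABL1 and was higher in C-MYC than in BCR-ABL1. The remaining 5 genes, Impdh1, Ctps2, Rrm2, Rrm2b and Tk1, were called in none.

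**Figure D1:**
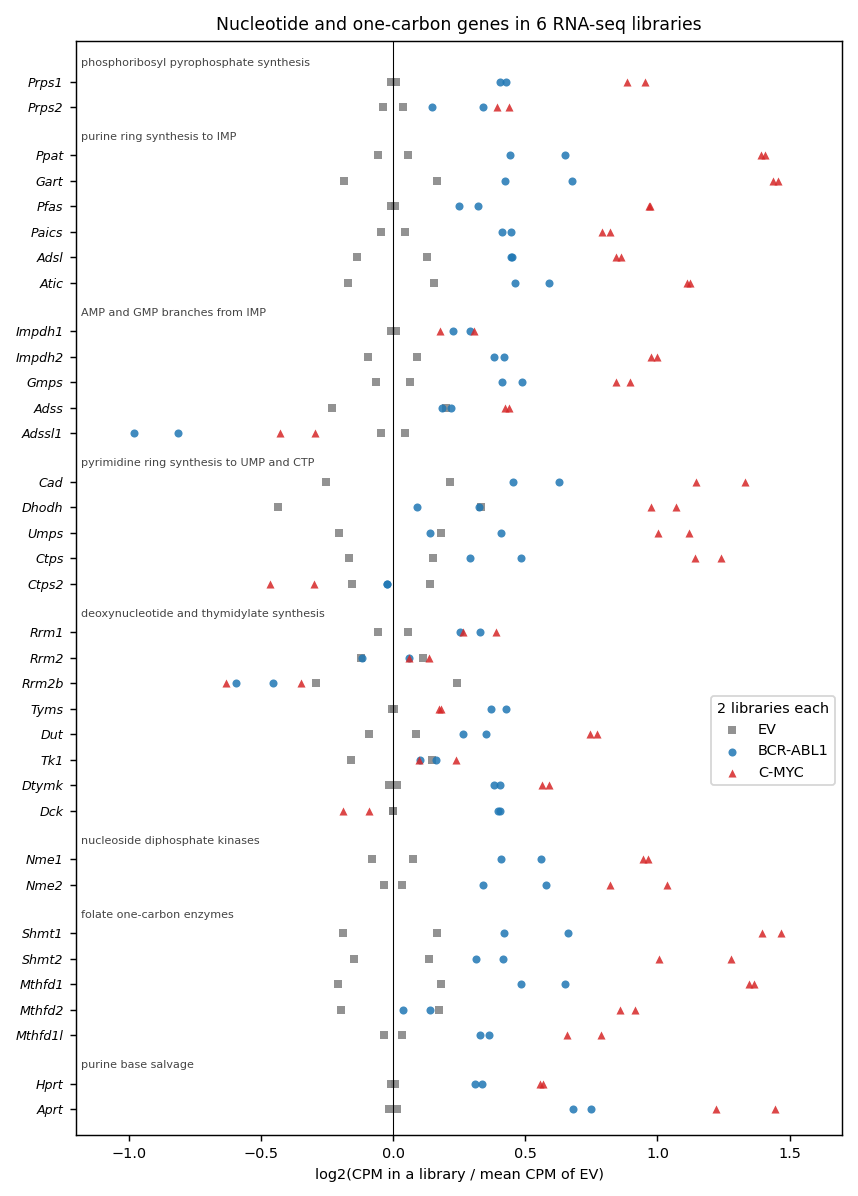
Level of each of the 35 genes in each of the 6 libraries, as the log2 ratio of its CPM to the mean CPM of the 2 EV libraries, with genes grouped by role. Grey squares are EV, blue circles BCR-ABL1 and red triangles C-MYC. Most genes run from EV through BCR-ABL1 to C-MYC, while Adssl1 is lowest in BCR-ABL1, Dck is highest in BCR-ABL1, and Rrm2 and Tk1 overlap in all 3 conditions.

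PRPP, the activated ribose on which nucleotides are built, is made by PRPP synthetases, and both of their genes rose in C-MYC. Prps1, an X-linked synthetase gene, stood at 107 and 106 CPM in EV, 141 and 144 CPM in BCR-ABL1 and 207 and 197 CPM in C-MYC. The 3 conditions did not overlap, and its log2 fold change was 0.92 (SE 0.098, adjusted p = 0.000506) in C-MYC against EV, 0.42 (SE 0.097, adjusted p = 0.0245) in BCR-ABL1 against EV and 0.50 (SE 0.097, adjusted p = 0.0100) in C-MYC against BCR-ABL1. Prps2, its paralog on the same chromosome, stood at 182 and 192 CPM in EV, 207 and 237 CPM in BCR-ABL1 and 245 and 253 CPM in C-MYC. It rose by less in C-MYC against EV, 0.41 (SE 0.11, adjusted p = 0.0161), and was not called in BCR-ABL1 against EV, 0.25 (SE 0.11, adjusted p = 0.163), or in C-MYC against BCR-ABL1, 0.17 (SE 0.11, adjusted p = 0.289). Without either C-MYC replicate, the call of Prps2 in C-MYC against EV was lost, with an adjusted p of up to 0.0771. Both genes of the PRPP synthase associated proteins, which bind the synthetases, also rose in C-MYC against EV, Prpsap1 by 0.72 (SE 0.16) and Prpsap2 by 0.47 (SE 0.13), whereas neither was called in the other comparisons.

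The purine ring is built by 6 gene products, and all 6 genes rose in C-MYC against both EV and BCR-ABL1, with medians of 1.04 and 0.64. In BCR-ABL1 against EV, 5 of 6 rose, with a median of 0.49, and Pfas was not called. Across all genes tested, 18.6% rose in C-MYC against EV, 11.5% in C-MYC against BCR-ABL1 and 5.08% in BCR-ABL1 against EV. Ppat, which encodes the amidotransferase of the committed step, stood at 95.03 and 103 CPM in EV, 135 and 155 CPM in BCR-ABL1 and 259.8 and 262 CPM in C-MYC. Its 2 C-MYC libraries nearly coincided above all others, and its log2 fold change was 1.40 (SE 0.11, adjusted p = 0.000262) in C-MYC against EV, 0.55 (SE 0.11, adjusted p = 0.0146) in BCR-ABL1 against EV and 0.85 (SE 0.11, adjusted p = 0.0029) in C-MYC against BCR-ABL1. Gart, which encodes an enzyme of 3 activities in the pathway, stood at 139 and 177 CPM in EV, 211 and 252 CPM in BCR-ABL1 and 426 and 433 CPM in C-MYC. It showed the largest log2 fold change of the members in C-MYC against EV, 1.45 (SE 0.15, adjusted p = 0.000443), and rose by 0.56 (SE 0.14, adjusted p = 0.0352) in BCR-ABL1 against EV and by 0.89 (SE 0.14, adjusted p = 0.00548) in C-MYC against BCR-ABL1.

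Pfas, which encodes the synthase that adds a nitrogen from glutamine, stood at 93.0 and 92.1 CPM in EV, 116 and 110.0 CPM in BCR-ABL1 and 181 and 181 CPM in C-MYC. The replicates of EV and of C-MYC each lay within a few CPM of each other, with log2 fold changes of 0.97 (SE 0.099, adjusted p = 0.00047) in C-MYC against EV, 0.29 (SE 0.099, adjusted p = 0.0897) in BCR-ABL1 against EV and 0.68 (SE 0.099, adjusted p = 0.00382) in C-MYC against BCR-ABL1. Paics, whose product closes a carboxylation and a ligation step, stood at 370.4 and 348 CPM in EV, 489.7 and 478 CPM in BCR-ABL1 and 621 and 635 CPM in C-MYC and rose by 0.81 (SE 0.091, adjusted p = 0.000601), 0.43 (SE 0.091, adjusted p = 0.0164) and 0.38 (SE 0.09, adjusted p = 0.0223) in the same 3 comparisons. Ppat and Paics lie head to head on chromosome 5, and their annotated exons share 272 bases on opposite strands, so reads there could be assigned to either gene, since the strand setting of the counting is not known. Adsl encodes adenylosuccinate lyase, which acts both in ring synthesis and on the way to AMP, and it stood at 78.7 and 94.6 CPM in EV, 118 and 118 CPM in BCR-ABL1 and 158 and 155 CPM in C-MYC. The conditions did not overlap, and it rose by 0.85 (SE 0.12, adjusted p = 0.00134), 0.45 (SE 0.12, adjusted p = 0.0392) and 0.41 (SE 0.12, adjusted p = 0.0429). Atic encodes the enzyme that adds the last one-carbon unit and closes the ring to IMP, and it stood at 166 and 208 CPM in EV, 257 and 282 CPM in BCR-ABL1 and 407 and 404 CPM in C-MYC. It rose by 1.12 (SE 0.13, adjusted p = 0.000628), 0.53 (SE 0.13, adjusted p = 0.0272) and 0.59 (SE 0.13, adjusted p = 0.0148) in the 3 comparisons, and its conditions did not overlap either. Annotated antisense exons share 1014 bases, 19.7% of the exon length, with Gart.

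**Figure D2:**
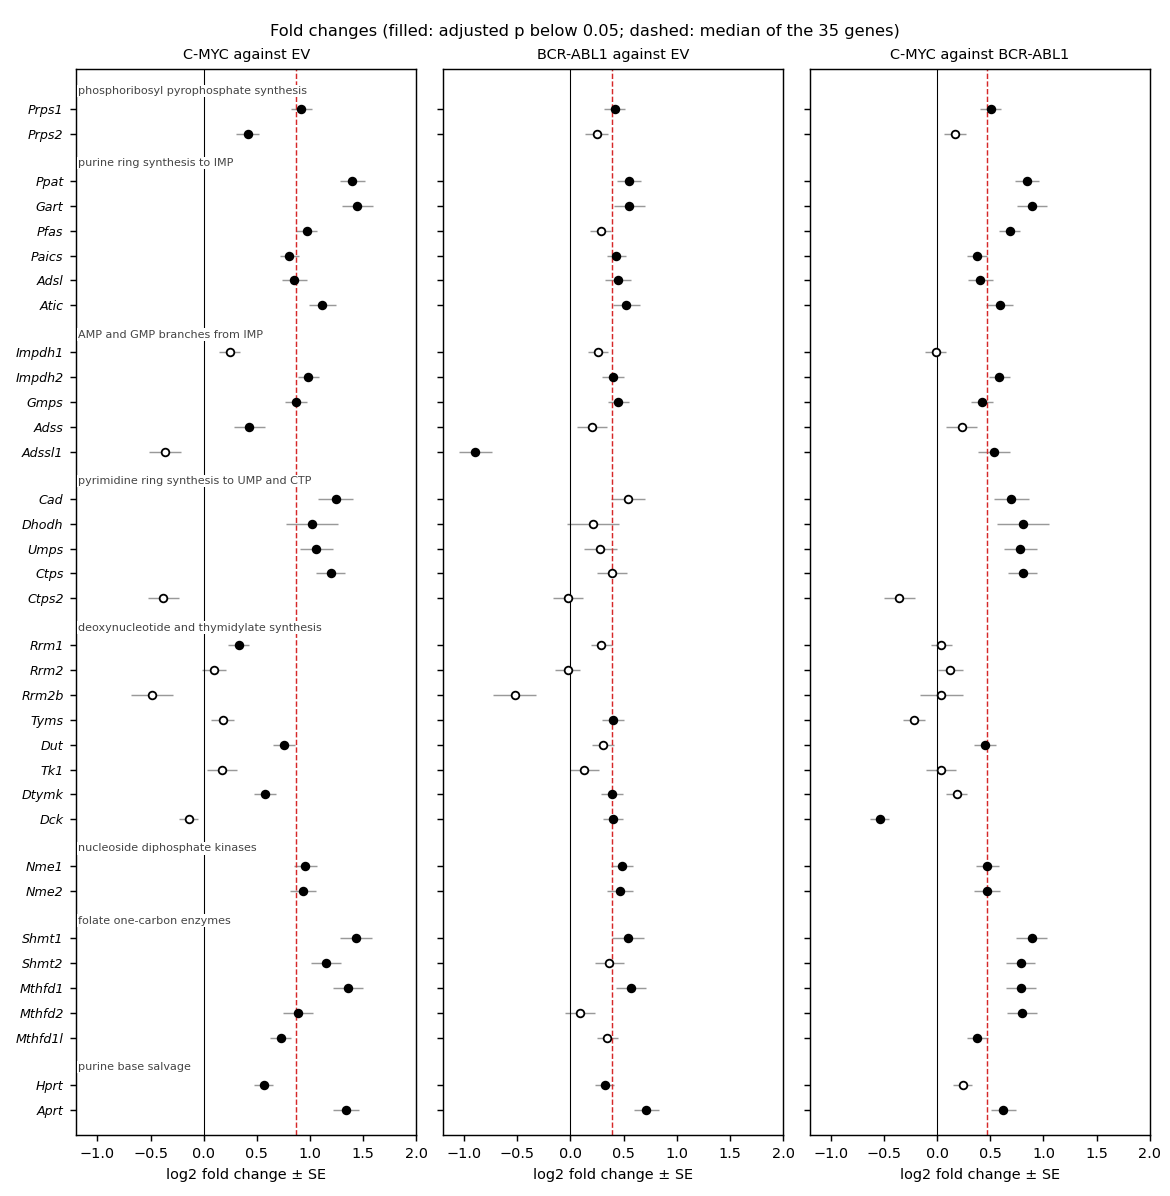
Log2 fold change of each gene with its standard error in C-MYC against EV (left), BCR-ABL1 against EV (middle) and C-MYC against BCR-ABL1 (right), from edgeR. Filled points passed an adjusted p below 0.05, hollow points did not, and the dashed line is the median of the 35 genes (0.87, 0.39 and 0.47).

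Since these genes moved together, their promoters were searched for 2 motifs, the E-box CACGTG that MYC and its partner MAX bind and the sites TTTCCCGC, TTTCGCGC, TTTGCCGC and TTTGGCGC of E2F factors, which control S phase genes. Both strands were read from 250 bases before to 50 after each RefSeq start (GRCm38.p6), and a promoter was given for 32 of the 35 genes, not for Pfas, Dhodh or Rrm2b. The E-box, which reads the same on both strands, occurred in at least 1 promoter of 6 of the 32 genes. Counted in the same way, by gene, it occurred at 8.09% of all 27025 genes with a promoter, and by promoter in 7.15% of all 32851. These genes include ones that did not pass the filter on low counts, which all members passed. The sets are therefore unlike, and whether the motif is more frequent among the members was not tested. The E2F sites occurred at 2 of the 32 genes, Prps2 and Ppat, at 2.6% of all genes and in 2.26% of all promoters, and no gene had both motifs. The search required CACGTG, so the core is the same in every stretch. The E-box of each of the 6 genes is printed on the gene's strand, the motif in capitals, with 12 bases on either side:
Paics: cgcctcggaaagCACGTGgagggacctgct
Atic: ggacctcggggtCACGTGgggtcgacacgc
Impdh2: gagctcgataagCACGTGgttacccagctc
Tyms: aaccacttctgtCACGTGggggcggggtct
Dtymk: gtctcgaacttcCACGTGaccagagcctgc
Nme1: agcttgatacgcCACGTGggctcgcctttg

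These stretches lie at chr5:76951087-76951116 on the plus strand for Paics, chr1:71557137-71557166 on the plus strand for Atic, chr9:108560314-108560343 on the plus strand for Impdh2, chr5:30073669-30073698 on the minus strand for Tyms, chr1:93802065-93802094 on the minus strand for Dtymk and chr11:93968037-93968066 on the minus strand for Nme1. The motif begins 203 bases before the start of Paics, 7 before Atic, 110 before Impdh2, 61 before Tyms, 148 before Dtymk and 29 before Nme1. A second annotated start of Nme1 has an E-box 18 bases before it. Of the 6 genes, Paics, Atic, Impdh2 and Nme1 rose in all 3 comparisons, Dtymk rose in both oncogene groups against EV, and Tyms rose only in BCR-ABL1 against EV. Ppat, Gart and Shmt1, whose log2 fold changes in C-MYC against EV were among the largest, had no CACGTG in this window.

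From IMP, 1 branch leads to GMP through IMP dehydrogenase and GMP synthetase and the other to AMP through adenylosuccinate synthase. Of the 5 genes, 3 rose in C-MYC against EV, 2 rose and 1 fell in BCR-ABL1 against EV, and 3 rose in C-MYC against BCR-ABL1, with medians of 0.43, 0.26 and 0.42. Of all genes tested, 18.6% rose in the first comparison. In the second 5.08% rose and 12.0% fell, and in the third 11.5% rose. Impdh2, the IMP dehydrogenase of dividing cells and the limiting step to GMP, stood at 242 and 275 CPM in EV, 345 and 336 CPM in BCR-ABL1 and 516 and 508 CPM in C-MYC. It rose by 0.99 (SE 0.10, adjusted p = 0.000475) in C-MYC against EV, 0.40 (SE 0.10, adjusted p = 0.0329) in BCR-ABL1 against EV and 0.59 (SE 0.10, adjusted p = 0.00694) in C-MYC against BCR-ABL1. Impdh1, the other dehydrogenase, stood at 239.5 and 243 CPM in EV, 282 and 295 CPM in BCR-ABL1 and 298 and 273 CPM in C-MYC, so that both oncogene groups lay above EV and overlapped each other. It was not called, with log2 fold changes of 0.24 (SE 0.097, adjusted p = 0.0775), 0.26 (SE 0.097, adjusted p = 0.115) and -0.02 (SE 0.097, adjusted p = 0.928). Gmps, which encodes GMP synthetase, stood at 139 and 127 CPM in EV, 177 and 187 CPM in BCR-ABL1 and 239 and 248 CPM in C-MYC and rose by 0.87 (SE 0.10, adjusted p = 0.000683), 0.45 (SE 0.10, adjusted p = 0.0214) and 0.42 (SE 0.10, adjusted p = 0.0224).

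On the AMP side, the 2 adenylosuccinate synthase genes went different ways. Adss, the form of most tissues, stood at 247 and 183 CPM in EV, 250.00 and 244 CPM in BCR-ABL1 and 291 and 288 CPM in C-MYC, with EV replicate 1 inside the range of BCR-ABL1. It rose in C-MYC against EV, 0.43 (SE 0.14, adjusted p = 0.0416), a call that held in 1 of 6 fits that each left out a library, and was 0.20 (SE 0.14) in BCR-ABL1 against EV and 0.23 (SE 0.14) in C-MYC against BCR-ABL1, both not called. Adssl1, the muscle form, was low, at 27.0 and 25.3 CPM in EV, 13.2 and 14.9 CPM in BCR-ABL1 and 21.3 and 19.4 CPM in C-MYC. Its BCR-ABL1 libraries were the lowest and its EV libraries the highest, with log2 fold changes of -0.89 (SE 0.15, adjusted p = 0.00736) in BCR-ABL1 against EV, -0.36 (SE 0.15, adjusted p = 0.0856) in C-MYC against EV and 0.53 (SE 0.15, adjusted p = 0.0398) in C-MYC against BCR-ABL1.

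The genes of pyrimidine synthesis rose in C-MYC against both other groups, but for Ctps2. Of the 5 genes, 4 rose in C-MYC against EV, 0 were called in BCR-ABL1 against EV and 4 rose in C-MYC against BCR-ABL1, with medians of 1.06, 0.28 and 0.78. Among all genes tested, 18.6% rose in the first comparison and 11.5% in the third, and in the second 5.08% rose and 12.0% fell. The 0 edgeR calls in BCR-ABL1 against EV do not show that these genes were level: 2 were higher at an unadjusted p below 0.05, DESeq2 called 1 and limma on FPKM called 0. Cad, which encodes the trifunctional enzyme of the first 3 steps, stood at 175 and 242 CPM in EV, 285 and 322 CPM in BCR-ABL1 and 461 and 524 CPM in C-MYC. Its log2 fold change was 1.24 (SE 0.16, adjusted p = 0.00107) in C-MYC against EV, 0.54 (SE 0.16, adjusted p = 0.0587) in BCR-ABL1 against EV and 0.70 (SE 0.16, adjusted p = 0.0196) in C-MYC against BCR-ABL1. Umps, whose product joins the ring to PRPP and makes UMP, stood at 87.5 and 114 CPM in EV, 111 and 134 CPM in BCR-ABL1 and 202 and 219 CPM in C-MYC, with BCR-ABL1 overlapping EV. It rose by 1.06 (SE 0.16, adjusted p = 0.00166) in C-MYC against EV and by 0.78 (SE 0.16, adjusted p = 0.0114) in C-MYC against BCR-ABL1, with 0.28 (SE 0.16, adjusted p = 0.269) in BCR-ABL1 against EV.

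Dhodh, the mitochondrial enzyme that ties the pathway to the respiratory chain, was low, at 11.5 and 19.5 CPM in EV, 16.5 and 19.4 CPM in BCR-ABL1 and 30.4 and 32.5 CPM in C-MYC. The EV replicates spanned the BCR-ABL1 libraries, and both C-MYC libraries lay above all others, with 1.02 (SE 0.24, adjusted p = 0.0122) against EV and 0.81 (SE 0.24, adjusted p = 0.0476) against BCR-ABL1, and 0.21 (SE 0.25) between BCR-ABL1 and EV. Without either C-MYC replicate both of these calls were lost, and the call against BCR-ABL1 was also lost without either BCR-ABL1 replicate. Over the fits that left out a library, the log2 fold change of Dhodh in C-MYC was 0.69 to 1.46 against EV. Against BCR-ABL1 it was 0.70 to 0.94. Ctps, a CTP synthase that is induced in dividing lymphocytes, stood at 69.1 and 86.0 CPM in EV, 94.9 and 108 CPM in BCR-ABL1 and 171 and 183 CPM in C-MYC and rose by 1.19 (SE 0.14, adjusted p = 0.000675) in C-MYC against EV and 0.80 (SE 0.14, adjusted p = 0.00693) in C-MYC against BCR-ABL1, with 0.39 (SE 0.14, adjusted p = 0.0967) in BCR-ABL1 against EV. Its paralog Ctps2 went the other way in C-MYC, at 46.5 and 57.1 CPM in EV, 50.9 and 50.9 CPM in BCR-ABL1 and 37.5 and 42.1 CPM in C-MYC. The C-MYC libraries were the lowest, but the differences were not called, at -0.38 (SE 0.14, adjusted p = 0.0644) against EV and -0.35 (SE 0.14, adjusted p = 0.114) against BCR-ABL1.

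The genes of deoxynucleotide and thymidylate synthesis had the lowest median of the 8 roles in C-MYC against EV. Of the 8 genes, 3 rose in C-MYC against EV, 3 rose in BCR-ABL1 against EV, and in C-MYC against BCR-ABL1 1 rose and 1 fell. The medians were 0.17, 0.30 and 0.04. Over all genes tested, 18.6% rose in the first comparison, 5.08% in the second, and 11.5% rose and 11.9% fell in the third. Rrm1, the large subunit of ribonucleotide reductase, stood at 538 and 498 CPM in EV, 651 and 617 CPM in BCR-ABL1 and 678 and 623 CPM in C-MYC. The oncogene groups overlapped each other above EV, and only C-MYC against EV was called, 0.33 (SE 0.098, adjusted p = 0.0285), a call kept in 2 of 6 fits that left out a library. Rrm2, the S phase small subunit, stood at 389 and 457 CPM in EV, 389.9 and 441 CPM in BCR-ABL1 and 464 and 441 CPM in C-MYC, where all conditions overlapped, with log2 fold changes of 0.10 (SE 0.12), -0.03 (SE 0.12) and 0.12 (SE 0.12). Rrm2b, the small subunit induced by p53, stood at 34.0 and 49.2 CPM in EV, 27.5 and 30.3 CPM in BCR-ABL1 and 26.8 and 32.6 CPM in C-MYC. Both oncogene groups lay below EV in every library, and the differences of -0.49 (SE 0.20, adjusted p = 0.0829) and -0.53 (SE 0.20, adjusted p = 0.116) were not called.

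Thymidine nucleotides come from thymidylate synthase, which uses a folate one-carbon unit, and from the salvage kinase TK1. Tyms, which encodes the synthase, stood at 72.0 and 71.7 CPM in EV, 92.9 and 96.5 CPM in BCR-ABL1 and 81.0 and 81.5 CPM in C-MYC, so that BCR-ABL1 was the highest. It rose in BCR-ABL1 against EV, 0.40 (SE 0.10, adjusted p = 0.038), and was not called in C-MYC against EV, 0.18 (SE 0.10, adjusted p = 0.209), or in C-MYC against BCR-ABL1, -0.22 (SE 0.10, adjusted p = 0.167). Dut, whose product removes dUTP and supplies dUMP, stood at 203 and 229.9 CPM in EV, 260.2 and 276 CPM in BCR-ABL1 and 363 and 369.5 CPM in C-MYC and rose by 0.76 (SE 0.10, adjusted p = 0.00123) in C-MYC against EV and 0.45 (SE 0.10, adjusted p = 0.0189) in C-MYC against BCR-ABL1, with 0.31 (SE 0.10) in BCR-ABL1 against EV. Dtymk, the kinase that turns dTMP into dTDP, stood at 81.5 and 79.9 CPM in EV, 105 and 107 CPM in BCR-ABL1 and 121 and 119 CPM in C-MYC and rose by 0.58 (SE 0.10, adjusted p = 0.00322) in C-MYC and 0.39 (SE 0.10, adjusted p = 0.035) in BCR-ABL1 against EV. Tk1 stood at 61.5 and 49.7 CPM in EV, 62.2 and 59.6 CPM in BCR-ABL1 and 65.6 and 59.5 CPM in C-MYC, with all conditions overlapping, and its log2 fold changes of 0.17 (SE 0.14), 0.13 (SE 0.14) and 0.04 (SE 0.14) were not called.

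Dck, the kinase that salvages deoxycytidine and activates cytarabine, was the only member to be called lower in C-MYC than in BCR-ABL1. It stood at 340.0 and 339.9 CPM in EV, 449.5 and 448 CPM in BCR-ABL1 and 298 and 319 CPM in C-MYC, and the 3 conditions did not overlap. It rose in BCR-ABL1 against EV, 0.40 (SE 0.092, adjusted p = 0.0227), was -0.14 (SE 0.092, adjusted p = 0.247) in C-MYC against EV, and was lower in C-MYC than in BCR-ABL1, -0.54 (SE 0.092, adjusted p = 0.00652). Without BCR-ABL1 replicate 1 or BCR-ABL1 replicate 2 neither call was kept, with an adjusted p of up to 0.183 for the rise and of up to 0.0789 for the difference between the oncogenes, while the log2 fold changes stayed at 0.39 or above and at -0.49 or below.

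The nucleoside diphosphate kinases, which turn diphosphates into triphosphates, rose in every comparison, 2 of 2 genes each time. The share of all genes tested that rose was 5.08% to 18.6%. Nme1 stood at 125 and 139 CPM in EV, 176 and 195 CPM in BCR-ABL1 and 255 and 258 CPM in C-MYC and rose by 0.96 (SE 0.11, adjusted p = 0.00061) in C-MYC against EV, 0.48 (SE 0.11, adjusted p = 0.0204) in BCR-ABL1 against EV and 0.47 (SE 0.11, adjusted p = 0.0186) in C-MYC against BCR-ABL1. Nme2, its close paralog, stood at 234 and 223 CPM in EV, 289 and 341 CPM in BCR-ABL1 and 403 and 469 CPM in C-MYC and rose by 0.93 (SE 0.12, adjusted p = 0.00107), 0.46 (SE 0.12, adjusted p = 0.0384) and 0.47 (SE 0.12, adjusted p = 0.0297). The 2 genes are neighbours on chromosome 11, 719 bases apart, and a readthrough gene covers 48.9% of the exon length of Nme2, so how reads were divided between them is uncertain.

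The folate enzymes that supply one-carbon units rose in C-MYC as a group, 5 of 5 against EV and 5 of 5 against BCR-ABL1, with medians of 1.15 and 0.79. Against EV, 2 of 5 rose in BCR-ABL1, with a median of 0.37. Across all genes tested, 18.6%, 11.5% and 5.08% rose in these comparisons, in the same order. Serine hydroxymethyltransferase, which takes the one-carbon unit from serine, has a cytosolic and a mitochondrial form. Shmt1, the cytosolic form, stood at 58.1 and 74.3 CPM in EV, 88.4 and 105 CPM in BCR-ABL1 and 174 and 183 CPM in C-MYC and rose by 1.43 (SE 0.15, adjusted p = 0.000506) in C-MYC against EV, 0.54 (SE 0.15, adjusted p = 0.0434) in BCR-ABL1 against EV and 0.89 (SE 0.15, adjusted p = 0.00619) in C-MYC against BCR-ABL1. Shmt2, the mitochondrial form, stood at 214 and 261 CPM in EV, 296 and 317 CPM in BCR-ABL1 and 578 and 478 CPM in C-MYC, with no overlap between conditions, and rose by 1.15 (SE 0.14, adjusted p = 0.000739) and 0.78 (SE 0.14, adjusted p = 0.00716) in the C-MYC comparisons, with 0.37 (SE 0.14, adjusted p = 0.111) in BCR-ABL1 against EV.

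Mthfd1, the cytosolic enzyme that gives formyltetrahydrofolate to the purine ring, stood at 110.4 and 145 CPM in EV, 178 and 200.1 CPM in BCR-ABL1 and 324 and 328 CPM in C-MYC. It rose by 1.35 (SE 0.14, adjusted p = 0.000506), 0.57 (SE 0.14, adjusted p = 0.0312) and 0.79 (SE 0.14, adjusted p = 0.00798) in C-MYC against EV, BCR-ABL1 against EV and C-MYC against BCR-ABL1. Mthfd2, the mitochondrial dehydrogenase of embryonic and dividing cells, stood at 63.1 and 81.6 CPM in EV, 74.2 and 79.6 CPM in BCR-ABL1 and 136 and 131 CPM in C-MYC, where the BCR-ABL1 libraries lay between the EV replicates. It rose by 0.89 (SE 0.14, adjusted p = 0.00226) against EV and 0.80 (SE 0.14, adjusted p = 0.00755) against BCR-ABL1 in C-MYC, and its log2 fold change in BCR-ABL1 against EV was 0.09 (SE 0.14, adjusted p = 0.726). Mthfd1l, which releases formate in mitochondria, stood at 137 and 144 CPM in EV, 176 and 181 CPM in BCR-ABL1 and 242 and 222 CPM in C-MYC and rose by 0.72 (SE 0.10, adjusted p = 0.00133) and 0.38 (SE 0.10, adjusted p = 0.0312) in the C-MYC comparisons, with 0.35 (SE 0.10, adjusted p = 0.0533) in BCR-ABL1 against EV.

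Both genes of purine base salvage, 2 of 2, rose in both oncogene groups against EV. The share of all genes tested that rose was 18.6% in C-MYC and 5.08% in BCR-ABL1. Aprt, which recovers adenine, stood at 50.0 and 51.0 CPM in EV, 84.8 and 80.9 CPM in BCR-ABL1 and 137 and 118 CPM in C-MYC. Its log2 fold change in BCR-ABL1 against EV, 0.71 (SE 0.12, adjusted p = 0.00709), was the largest of the members in that comparison, and it rose by 1.34 (SE 0.12, adjusted p = 0.00035) in C-MYC against EV and 0.62 (SE 0.12, adjusted p = 0.0099) in C-MYC against BCR-ABL1. Hprt, which recovers hypoxanthine and guanine and activates mercaptopurine, stood at 208 and 206 CPM in EV, 257 and 262 CPM in BCR-ABL1 and 307 and 305 CPM in C-MYC. It rose by 0.56 (SE 0.091, adjusted p = 0.00237) in C-MYC and 0.32 (SE 0.091, adjusted p = 0.0482) in BCR-ABL1 against EV, and 0.24 (SE 0.091, adjusted p = 0.095) in C-MYC against BCR-ABL1 was not called. The rise in BCR-ABL1 was called in 0 of 6 fits that left out a library.

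Ratios of counts between paired enzymes within a library do not depend on the scaling of libraries. The Ctps to Ctps2 ratio differed most of the 8 pairs between C-MYC and EV, by 1.58 on the log2 scale, with 4.57 and 4.36 in C-MYC, 1.86 and 2.13 in BCR-ABL1, and 1.49 and 1.51 in EV. The Impdh1 to Impdh2 ratio was 0.578 and 0.537 in C-MYC, lower than the 0.818 and 0.876 of BCR-ABL1 and the 0.991 and 0.883 of EV. The C-MYC libraries did not overlap the others in either pair, nor in the ratios of Prps1 to Prps2 and Mthfd1 to Mthfd1l, which were higher in C-MYC. The Adss to Adssl1 ratio was highest in BCR-ABL1, at 18.9 and 16.4, against 9.15 and 7.25 in EV and 13.7 and 14.8 in C-MYC. In C-MYC against EV the log2 ratio of Prps1 to Prps2 differed by 0.50, of Mthfd1 to Mthfd1l by 0.64, of Rrm2 to Rrm2b by 0.57, of Shmt1 to Shmt2 by 0.29 and of Nme1 to Nme2 by 0.03. These ratios are given as a description, with 2 values a condition and no p.

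As levels per length, FPKM put Rrm2 above Rrm2b (log2 ratio 3.02 in EV), Adss above Adssl1 (1.80), Shmt2 above Shmt1 (Shmt1 to Shmt2, -2.25) and Nme2 above Nme1 (Nme1 to Nme2, -0.42), and counts per kilobase of annotated exon gave these orders in all 3 conditions. The order of Prps1 and Prps2 and of Impdh1 and Impdh2 turned with the scale: by FPKM, Prps2 and Impdh1 were higher, with log2 ratios of -1.89 and 0.94 in EV, and by counts per kilobase Prps1 and Impdh2 were, with 0.15 and -0.19. Relative to the median member, FPKM stood 8.05 times above counts per kilobase for Pfas and at 0.23 times for Adss, so levels between genes are given no further.

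**Figure D3:**
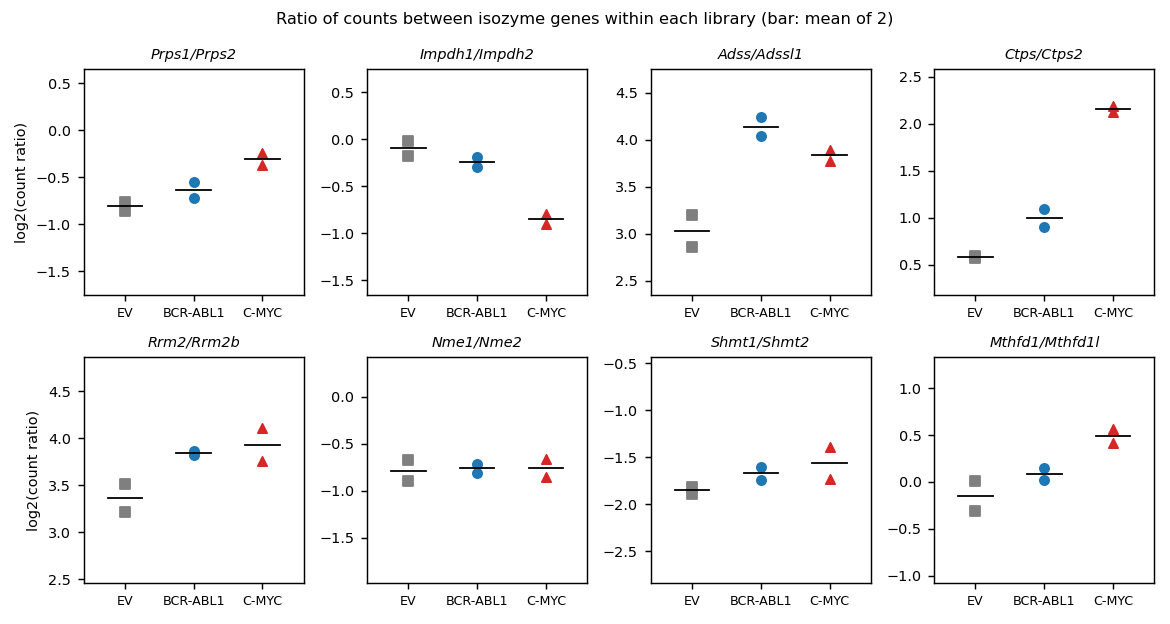
Log2 ratio of counts between paired enzymes in each library, with 1 panel a pair and a bar at the mean of the 2 libraries; every panel spans the same log2 range. In Ctps to Ctps2, Prps1 to Prps2 and Mthfd1 to Mthfd1l both C-MYC libraries lie above the others, in Impdh1 to Impdh2 both lie below, and in Adss to Adssl1 they lie between EV and BCR-ABL1.

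Around these enzymes, 73 further genes of nucleotide and folate metabolism were listed, of which 65 were tested. In C-MYC against EV 29 rose and 13 fell, in BCR-ABL1 against EV 8 rose and 7 fell, and in C-MYC against BCR-ABL1 19 rose and 5 fell. Their median log2 fold changes were 0.42, 0.10 and 0.27. Over all genes tested, 18.6% rose and 24.5% fell in the first of these comparisons. The shares were 5.08% and 12.0% in the second and 11.5% and 11.9% in the third. Among 21 genes of folate transport, retention and other one-carbon steps, 10 rose and 2 fell in C-MYC against EV, 4 rose and 2 fell in BCR-ABL1 against EV, and 6 rose and 1 fell in C-MYC against BCR-ABL1. Slc19a1, the reduced folate carrier that also takes up methotrexate, stood at 28.7 and 28.5 CPM in EV, 43.0 and 49.2 CPM in BCR-ABL1 and 106 and 89.0 CPM in C-MYC and rose by 1.77 (SE 0.14, adjusted p = 0.000253), 0.69 (SE 0.14, adjusted p = 0.0143) and 1.08 (SE 0.14, adjusted p = 0.00258). Slc25a32, the mitochondrial folate carrier, stood at 15.9 and 14.5 CPM in EV, 17.4 and 17.0 CPM in BCR-ABL1 and 35.5 and 35.1 CPM in C-MYC and rose by 1.21 (SE 0.14) in C-MYC against EV and 1.04 (SE 0.14) in C-MYC against BCR-ABL1. Of the glycine cleavage system, Gcsh rose by 1.49 (SE 0.17), 0.85 (SE 0.17) and 0.64 (SE 0.17).

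Gldc, the glycine decarboxylase, was the 1 gene of this list called lower in C-MYC than in BCR-ABL1. It stood at 616 and 600.1 CPM in EV, 1160.1 and 1163 CPM in BCR-ABL1 and 909 and 827 CPM in C-MYC, rose by 0.93 (SE 0.092, adjusted p = 0.000983) in BCR-ABL1 against EV and by 0.51 (SE 0.092) in C-MYC against EV, and was lower in C-MYC than in BCR-ABL1, -0.42 (SE 0.092). Ahcy, which clears the product of methylation reactions, rose by 1.16 (SE 0.099) in C-MYC against EV and 0.86 (SE 0.099) against BCR-ABL1. Aldh1l2, a mitochondrial formyltetrahydrofolate dehydrogenase, was near the limit of detection, as EV had 14 and 33 counts, BCR-ABL1 had 3 and 2, and C-MYC had 4 and 3. Its ratio to EV was 0.107 in BCR-ABL1 (95% exact counting interval 0.0331 to 0.267) and 0.153 in C-MYC (0.0585 to 0.341), intervals that cover counting error only.

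Among 17 other nucleoside and nucleotide kinases, 8 rose and 3 fell in C-MYC against EV, 2 rose and 1 fell in BCR-ABL1 against EV, and 6 rose and 1 fell in C-MYC against BCR-ABL1. Of all genes tested, 18.6% rose and 24.5% fell in the first, 5.08% and 12.0% in the second and 11.5% and 11.9% in the third. The share of these kinases that fell was below that of all genes in each comparison. Ak4, a mitochondrial adenylate kinase, was low in EV and BCR-ABL1 and high in C-MYC, at 1.54 and 2.42 CPM in EV, 1.8 and 2.49 CPM in BCR-ABL1 and 19.2 and 13.7 CPM in C-MYC, with 3.04 (SE 0.32, adjusted p = 0.000506) against EV and 2.93 (SE 0.32, adjusted p = 0.00147) against BCR-ABL1. Adk, adenosine kinase, rose by 1.24 (SE 0.12) in C-MYC and 0.84 (SE 0.12) in BCR-ABL1 against EV, and Guk1, guanylate kinase, by 1.23 (SE 0.16) and 0.67 (SE 0.16). Uck2, a uridine and cytidine kinase, rose by 0.63 (SE 0.13) and Ak6, a nuclear adenylate kinase, by 0.73 (SE 0.21) in C-MYC against BCR-ABL1. Tk2, the mitochondrial thymidine kinase, was lower in C-MYC than in BCR-ABL1, -0.91 (SE 0.14). Cmpk2, a mitochondrial kinase induced by interferon, stood at 27.8 and 18.1 CPM in EV, 7.68 and 6.07 CPM in BCR-ABL1 and 5.15 and 6.51 CPM in C-MYC and was lower than EV in C-MYC, -1.98 (SE 0.27), and in BCR-ABL1, -1.74 (SE 0.26).

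Of 27 genes of nucleotide breakdown and deoxynucleotide hydrolysis, 21 were tested, and in C-MYC against EV 7 rose and 6 fell. Over all genes tested, 18.6% rose and 24.5% fell in that comparison. Against EV, BCR-ABL1 had 2 that rose and 4 that fell, where 5.08% of all genes rose and 12.0% fell. In C-MYC against BCR-ABL1 6 rose and 2 fell, where 11.5% of all genes rose and 11.9% fell. Samhd1, which hydrolyses deoxynucleotides and is abundant in myeloid cells, stood at 169 and 136 CPM in EV, 24.1 and 25.1 CPM in BCR-ABL1 and 33.7 and 42.7 CPM in C-MYC and fell in C-MYC against EV, -2.0 (SE 0.17, adjusted p = 0.00029), and in BCR-ABL1 against EV, -2.63 (SE 0.17, adjusted p = 0.000367). Gda, guanine deaminase, stood at 26.5 and 21.5 CPM in EV, 2.75 and 2.37 CPM in BCR-ABL1 and 4.64 and 6.06 CPM in C-MYC and was also lower than EV, with -2.16 (SE 0.22) in C-MYC and -3.23 (SE 0.24) in BCR-ABL1. Xdh, which makes uric acid, stood at 26.1 and 24.996 CPM in EV, 3.56 and 3.49 CPM in BCR-ABL1 and 7.31 and 10.9 CPM in C-MYC, with log2 fold changes of -1.49 (SE 0.22) in C-MYC and -2.86 (SE 0.23) in BCR-ABL1 against EV, and 1.37 (SE 0.23) in C-MYC against BCR-ABL1. Upp1, uridine phosphorylase, had 190 and 33 counts in EV, where BCR-ABL1 had 4 and 4, and C-MYC 17 and 10. Its ratio to EV was 0.036 in BCR-ABL1 (95% exact counting interval 0.0154 to 0.0722) and 0.125 in C-MYC (0.0804 to 0.186), and its EV replicates were far apart. These 4 genes were lower in the same groups as the 12 myeloid markers, whose part in the result was not tested.

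Pnp, the purine nucleoside phosphorylase that feeds the salvage of bases, moved in opposite directions in the 2 oncogene groups. It stood at 266 and 335 CPM in EV, 514 and 540.0 CPM in BCR-ABL1 and 202 and 174 CPM in C-MYC, rose in BCR-ABL1 against EV, 0.81 (SE 0.14, adjusted p = 0.00713), fell in C-MYC against EV, -0.68 (SE 0.14, adjusted p = 0.00582), and was lower in C-MYC than in BCR-ABL1, -1.49 (SE 0.14, adjusted p = 0.000876). A near-identical neighbour, Pnp2, could share its reads. Dctd, which makes dUMP from dCMP, stood at 5.89 and 11.5 CPM in EV, 14.6 and 17.7 CPM in BCR-ABL1 and 31.7 and 38.7 CPM in C-MYC and rose by 2.01 (SE 0.30, adjusted p = 0.00167) in C-MYC against EV and 1.13 (SE 0.29) in C-MYC against BCR-ABL1. Nt5e, the surface nucleotidase CD73, was lower in C-MYC than in BCR-ABL1, -1.08 (SE 0.20). Among 6 nucleoside transporters, 4 were tested and all 4 were called in C-MYC against EV, 2 higher and 2 lower. There, 18.6% of all genes tested were higher and 24.5% lower. Of the 4, edgeR called 0 in BCR-ABL1 against EV, with 2 at an unadjusted p below 0.05 and 1 call by DESeq2. Slc29a2, an equilibrative carrier, stood at 2.52 and 2.8 CPM in EV, 3.41 and 3.82 CPM in BCR-ABL1 and 14.7 and 9.79 CPM in C-MYC, and the concentrative carrier Slc28a2 at 21.6 and 20.5 CPM in EV, 18.9 and 18.5 CPM in BCR-ABL1 and 5.56 and 6.92 CPM in C-MYC. In C-MYC against EV, Slc29a2 rose by 2.20 (SE 0.27, adjusted p = 0.000837) from a low level and Slc29a1, the main equilibrative carrier, by 0.61 (SE 0.11), while Slc28a2, with -1.75 (SE 0.18, adjusted p = 0.000455), and the lysosomal Slc29a3, with -0.67 (SE 0.15), fell. In C-MYC against BCR-ABL1, Slc29a2 rose, 1.75 (SE 0.27), and Slc28a2 fell, -1.58 (SE 0.18).

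**Figure D4:**
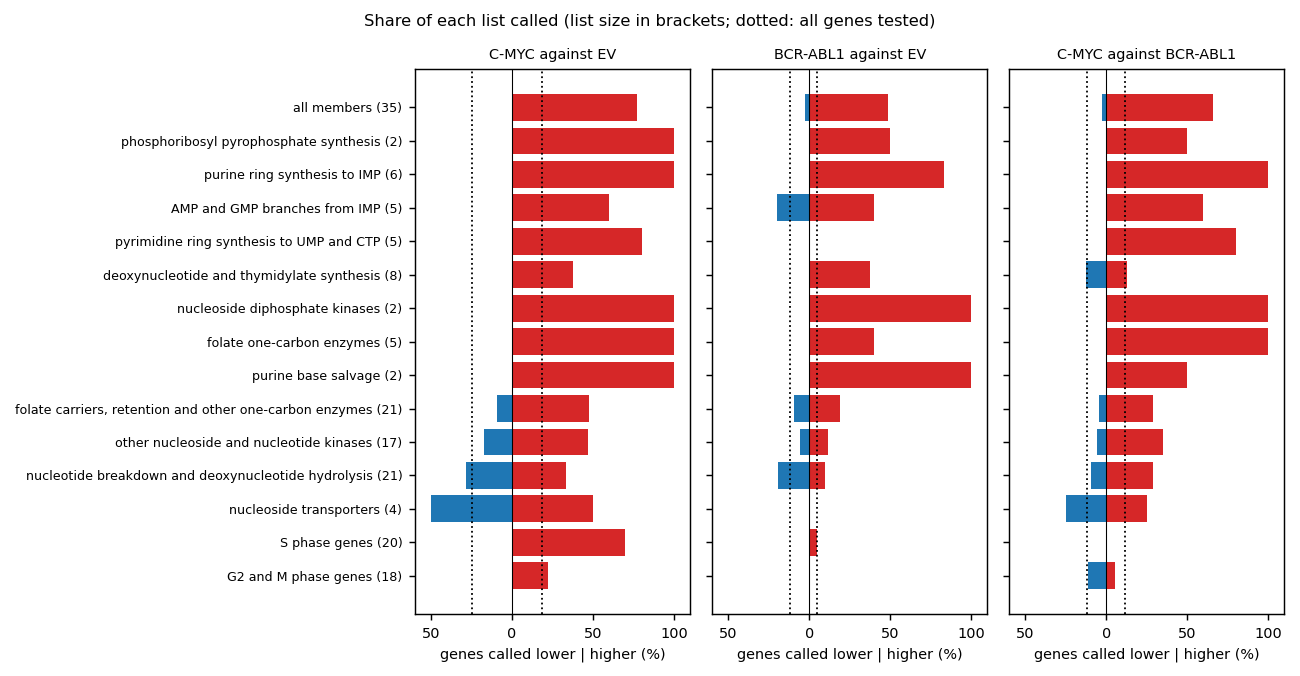
Percent of the tested genes of each list called higher (red, to the right) or lower (blue, to the left) in the 3 comparisons, with the number of genes in brackets and the percent over all genes tested as dotted lines. All 6 purine ring genes and all 5 folate enzymes rose in both C-MYC comparisons, and 0 of 5 pyrimidine genes were called in BCR-ABL1 against EV.

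The lists of cell cycle genes had smaller medians than the members in all 3 comparisons. Of 20 S phase genes, 14 rose in C-MYC against EV with a median log2 fold change of 0.42, 1 (Mcm4) rose in BCR-ABL1 against EV with a median of 0.27, and edgeR called 0 in C-MYC against BCR-ABL1 (2 at an unadjusted p below 0.05, 1 by DESeq2), where the median was 0.18. Of 18 genes of the G2 and M phases, 4 (Cdk1, Ccnb1, Cdc20 and Kif20a) rose in C-MYC against EV and edgeR called 0 in BCR-ABL1 against EV (2 at an unadjusted p below 0.05, 1 by DESeq2), with medians of 0.14 and 0.11. In C-MYC against BCR-ABL1, Cdc20 rose and Ccnb2 and Nusap1 fell, with a median of 0.07. Of all genes tested, 18.6% rose in C-MYC against EV and 5.08% in BCR-ABL1 against EV. In C-MYC against BCR-ABL1 11.5% rose and 11.9% fell. The 4 of 18 G2 and M phase genes that rose in C-MYC against EV were near the share of all genes. The medians of the members in the 3 comparisons were 0.87, 0.39 and 0.47. The part of the cell cycle in the members' change was not tested.

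Both comparisons with EV also set cultures with different other cells side by side. All 12 myeloid markers were lower than EV in both oncogene groups, and 3 of them, Csf1r, Cd14 and Cebpa, were higher in C-MYC than in BCR-ABL1. Among all genes tested, 24.5% fell in C-MYC and 12.0% in BCR-ABL1 against EV. Between the oncogenes, 11.5% were higher and 11.9% lower in C-MYC. The 8 T and NK cell markers gave a sum of 151 and 118 CPM in EV, of 87.5 and 71.8 in BCR-ABL1 but of 6.25 and 8.26 in C-MYC, but Cd2 alone made up 79.7 and 62.6 CPM of the sums in BCR-ABL1, where it rose. The other 7 were lower than EV in both oncogene groups, with sums of 131.6 and 94.5 CPM in EV, while BCR-ABL1 had 7.82 and 9.22, and C-MYC 3.91 and 5.84. The 6 stromal markers gave 101 and 154 CPM in EV, whereas BCR-ABL1 had 4.88 and 6.07, and C-MYC 2.25 and 4.0, where Cxcl12, Pdgfrb and Dcn were at 0 counts. Of the 5 stromal markers tested, 4 fell in C-MYC against EV and 1 was not called, with a log2 fold change of 1.45. In BCR-ABL1 against EV 3 fell and 2 were not called. In C-MYC against BCR-ABL1 1 rose, by 3.54, and 2 fell. The 7 erythroid markers were at or near 0 in every library, with Hba-a1 and Hbb-bt at 0. The B cell precursor markers themselves were lower in C-MYC, 8 of 10 against EV and 6 of 10 against BCR-ABL1, and of the 10, Il7r and Cd79b fell in BCR-ABL1 against EV. The part of these cells in the members' results was not tested.

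**Figure D5:**
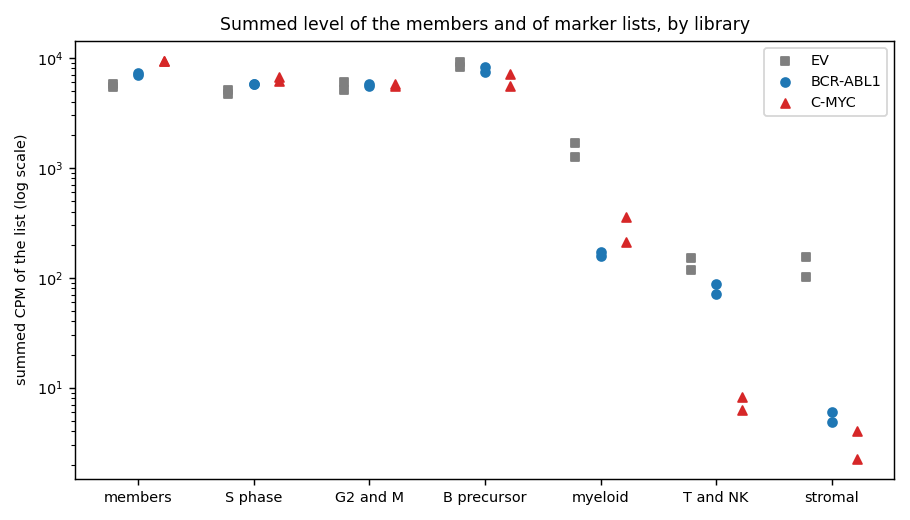
Summed CPM of the 35 members, of the cell cycle genes and of the marker lists in each library, on a log axis, with 2 points a condition. The EV libraries sum to 5434 and 5794 CPM of members, those of BCR-ABL1 to 6958 and 7323 and those of C-MYC to 9427 and 9395, while the myeloid and stromal sums are highest in EV.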

How the data were processed

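Poly(A) RNA of 6 libraries (EV, BCR-ABL1 and C-MYC, 2 each) was analysed, with conditions and replicate numbers taken from the sample labels. The authors aligned reads to GRCm38/mm10 with STAR 2.5.0 and UCSC known genes and deposited whole-number counts per gene symbol, without normalization. The deposited FPKM values were made by the authors with StringTie 1.3.0. The counting program and its strand setting are not given in the sources used here. The ChIP-seq tracks were not used here.

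Counts were fitted with edgeR 4.0.16 (R 4.3.3), all 6 libraries in 1 model without covariate, after filterByExpr and TMM scaling. The test was quasi-likelihood, 2-sided, with Benjamini-Hochberg adjustment over 12786 genes, and a call needed an adjusted p below 0.05. The common biological coefficient of variation was 0.151, so replicate spread limits precision more than depth does. The standard error is the log2 fold change divided by the square root of the F statistic. Alternatives used DESeq2 1.42.0 and limma 3.58.1 on log2(FPKM + 1) and log2(FPKM + 0.1). The scripts were tested on simulated counts. Gene positions and exon lengths are from GENCODE (GRCm38), found for all 35 members.

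The members and the other gene lists were chosen with earlier results of these data known. Library values are given for every member called in any comparison and for its isozyme partner, and for some genes of the companion lists. The companion lists are named by up to 4 genes a list and comparison, those with the largest absolute log2 fold change among those called, and a few others stand beside a count of 5 or fewer. Dld and Amt are named beside the other genes of the glycine cleavage system. Some genes of the companion and marker lists are counted but not reported by name here.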

Additional observations from a re-analysis of the deposited data

How the results depend on the processing

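Of 840 member results under the 8 alternatives that kept all libraries of a comparison, 730 kept their direction and their side of the threshold, 73 lost the call, 21 gained one and 16 changed sign, each for a member that was not called. Of the 27 calls in C-MYC against EV, 23 held in these 8 fits and in the 6 that left out a library, all but Prps2, Adss, Rrm1 and Dhodh. In BCR-ABL1 against EV 0 of 18 did, and 5 held in the 8. In C-MYC against BCR-ABL1 2 of 24 did (Ppat and Pfas), and 19 held in the 8. The cause of these changes was not tested.

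Scaling by total counts gave 3 members lower in C-MYC than EV, 6 higher in BCR-ABL1 than EV (median 0.32), and shifted the median of all genes in C-MYC against EV from -0.08 to -0.19. It also moved the split of calls over all genes from 2383 higher and 3132 lower to 1795 and 3782 in C-MYC against EV, and from 650 and 1530 to 396 and 1647 in BCR-ABL1 against EV; limma on log2(FPKM + 0.1) gave 1708 and 3497 in the first. With limma on log2(FPKM + 1) and log2(FPKM + 0.1), 4 members each were higher in BCR-ABL1 than EV (medians 0.30 and 0.30), and the median in C-MYC against EV was 0.73 and 0.74. With only the 4 libraries compared, 5 members were higher in BCR-ABL1 than EV and 2 lower in C-MYC than BCR-ABL1. With the replicate block, 2 members were lower in each comparison, and 27, 22 and 23 were higher in C-MYC against EV, BCR-ABL1 against EV and C-MYC against BCR-ABL1, while over all genes 2918, 1221 and 2110 were higher, against 2383, 650 and 1468 without it; deviations of same-numbered libraries correlated at 0.20 to 0.27, but the labels do not say that a number marks a shared experiment.

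The log2 fold changes that changed sign stayed uncalled. By total counts they were -0.022 for Rrm2 in C-MYC against EV, and, in C-MYC against BCR-ABL1, -0.011 for Rrm1, -0.0055 for Rrm2b and -0.010 for Tk1. By limma on log2(FPKM + 1) and on log2(FPKM + 0.1) they were -0.021 and -0.021 for Rrm2 and -0.43 and -0.45 for Tk1 in C-MYC against EV, and -0.019 and -0.019 for Rrm1, -0.0093 and -0.011 for Rrm2b and -0.48 and -0.50 for Tk1 in C-MYC against BCR-ABL1. Impdh1 was 0.0096 in C-MYC against BCR-ABL1 by DESeq2's size factors and by its test. By counts per kilobase in place of FPKM, the log2 ratio of Prps1 to Prps2 was 0.15, 0.32 and 0.65, and of Impdh1 to Impdh2 -0.19, -0.34 and -0.94, for EV, BCR-ABL1 and C-MYC.

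Leaving out each library in turn gave 23 to 27 members higher and 0 to 2 lower in C-MYC against EV (median 0.73 to 0.90), 0 to 21 higher and 0 to 2 lower in BCR-ABL1 against EV (median 0.32 to 0.40), and 2 to 23 higher and 0 to 2 lower in C-MYC against BCR-ABL1 (median 0.40 to 0.52). The uncalled members whose sign turned ranged from -0.014 to 0.22 for Rrm2 in C-MYC against EV. For BCR-ABL1 against EV the ranges were -0.12 to 0.65 for Dhodh, -0.17 to 0.13 for Ctps2, -0.14 to 0.096 for Rrm2, -0.014 to 0.29 for Tk1 and -0.085 to 0.29 for Mthfd2. For C-MYC against BCR-ABL1 they were -0.081 to 0.048 for Impdh1, -0.025 to 0.097 for Rrm1, -0.11 to 0.17 for Rrm2b and -0.034 to 0.11 for Tk1.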
